A study of Caenorhabditis elegans with 3 samples.

Results

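The cytosolic chaperonin CCT of Caenorhabditis elegans is encoded by 8 subunit genes, cct-1 to cct-8, and the binding of the zinc-finger protein MEP-1 at these genes is described here. All 8 were taken by name, of 19973 nuclear protein-coding genes, and every point source (the base of strongest signal in a region) in the gene body and 2 kb upstream was collected. The data came from ChIP-seq on a single group of whole L4 larvae with 3 biological replicates, so no conditions were compared. The animals were of strain OP102, with the genotype unc-119(tm4063) III; wgIs102, in which wgIs102 is the transgene that carries tagged MEP-1; the sexes were mixed, and the label of replicate 3 places a GFP-FLAG tag at the C terminus. The genotype in the labels names no mutation of the native mep-1 gene. Because whole animals were used, a region is a mean over all tissues, and the tissue it comes from cannot be told.

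CCT is a barrel made of a pair of stacked rings, and each ring holds one copy of every subunit. It encloses newly made actin and tubulin and folds them with the energy of ATP, after the co-chaperone prefoldin has handed them over. All subunits are needed for the complex, and it is abundant in cells that build cytoskeleton. MEP-1 is known as a binding partner of the Mi-2 remodeller LET-418, with which it keeps germline genes silent in somatic cells.

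The authors deposited a relaxed list of 30000 regions for each replicate and a shorter optimal list, which holds 5209 nuclear regions on build ce11. The optimal list was kept by the IDR procedure, the irreproducible discovery rate, which compares the ranks of regions between replicates. A region in it need not rank high, or be listed, in every replicate. The score of a region is its signal value as the authors' caller wrote it. Its scale is not stated and it orders regions within a list only, so replicates were compared by rank, with rank 1 for the highest score. The 5148 highest-scoring regions of a replicate, as many as the IDR list has distinct nuclear intervals, are called its top regions. Read depth was not given in the lists. Replicate 3 has another stock source in the labels than replicates 1 and 2, and its scores ended at 362, against 932 and 904 in replicates 1 and 2.

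MEP-1 regions lay upstream of nearly all subunit genes. In the IDR list, a point source fell at the promoter of 7 of the 8 cct genes (87.5%), against 12.7% of all protein-coding genes. The exception was cct-3. Promoter means here the 500 bp before to the 100 bp after any annotated start of transcription. In the whole window of gene body and 2 kb upstream, the same 7 of 8 had a point source, against 22.5% of all protein-coding genes. Taking the top regions of each replicate alone, 7, 7 and 6 of the 8 promoters held a point source in replicates 1, 2 and 3, and 6 of 8 did so in all 3 replicates (75%), against 8.75% of protein-coding genes. The count depended on how a point source was given to a gene. With a window of 200 bp upstream to 100 bp downstream only cct-4 was left (1 of 8, against 6.96% of all genes). Its point lay at −196 bp in the IDR list and −165 bp in replicate 3, but outside that window, at −232 and −235 bp, in replicates 1 and 2. When a point source counted only for the gene with the nearest start, only cct-2 and cct-4 were left (2 of 8, against 9.28%).

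The sequence at the 7 promoter point sources is shown because the positions, and a short motif shared by 4 of them, are described below. Each line gives 100 bases of build ce11 (RefSeq assembly WBcel235) centred on the point source of the IDR list, on the strand of the cct gene. The windows are chrII:8185163-8185262 for cct-1, chrII:8927407-8927506 for cct-2, chrII:8283421-8283520 for cct-4, chrIII:4508510-4508609 for cct-5, chrIII:5855931-5856030 for cct-6, chrV:1871884-1871983 for cct-7 and chrIV:1094301-1094400 for cct-8. Those of cct-5, cct-6 and cct-8 are on the minus strand and the others on the plus strand. Capitals mark the cores of the heat shock element.
cct-1: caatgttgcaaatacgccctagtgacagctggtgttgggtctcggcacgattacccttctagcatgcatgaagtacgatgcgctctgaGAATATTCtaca
cct-2: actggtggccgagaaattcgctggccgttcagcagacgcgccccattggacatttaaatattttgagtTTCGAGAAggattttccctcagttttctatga
cct-4: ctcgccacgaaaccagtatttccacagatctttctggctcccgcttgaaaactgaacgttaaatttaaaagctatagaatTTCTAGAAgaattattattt
cct-5: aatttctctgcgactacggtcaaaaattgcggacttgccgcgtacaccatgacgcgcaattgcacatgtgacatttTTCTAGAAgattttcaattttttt
cct-6: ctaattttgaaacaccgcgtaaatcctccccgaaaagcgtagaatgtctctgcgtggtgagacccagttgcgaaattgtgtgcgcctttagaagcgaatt
cct-7: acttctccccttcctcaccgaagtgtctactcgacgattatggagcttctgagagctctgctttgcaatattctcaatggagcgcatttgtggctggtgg
cct-8: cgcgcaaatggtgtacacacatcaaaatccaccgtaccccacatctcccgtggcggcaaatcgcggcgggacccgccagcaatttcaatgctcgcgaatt

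The strongest regions belonged to cct-8 and cct-1. The gene cct-8, which encodes the theta subunit, had a region on chromosome IV from 1094186 to 1094512 with an IDR score of 676 (rank 44 of 5209). Its ranks were 41, 38 and 145 in replicates 1, 2 and 3, with scores of 284, 311 and 88.1. All 3 replicates thus placed it within the highest 0.483% of their regions, and replicate 3 gave the lowest placing. For cct-1, the alpha subunit gene, the region on chromosome II from 8185016 to 8185360 had an IDR score of 571 (rank 62). It ranked 43, 79 and 237 in replicates 1, 2 and 3, with scores of 272, 225 and 75.2. Of 2533 protein-coding genes with a promoter point source, 29 (1.14%) scored higher than cct-8 and 40 (1.58%) higher than cct-1 in the IDR list.

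The genes of the eta and zeta subunits stood in the middle. For cct-7 (eta) the region on chromosome V from 1871773 to 1872096 had an IDR score of 313 and ranked 274, 639 and 263 in replicates 1, 2 and 3. For cct-6 (zeta) the region on chromosome III from 5855864 to 5856079 had an IDR score of 229 and ranked 636, 1023 and 609. In both genes replicate 2 gave the lowest placing and replicates 1 and 3 lay close together. Among the bound genes 10.6% scored higher than cct-7 and 20.3% higher than cct-6.

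The regions of cct-5, cct-2 and cct-4 were weaker. The promoter region of cct-5 (epsilon), on chromosome III from 4508505 to 4508637, had an IDR score of 140 and ranked 2902, 1491 and 2166 in replicates 1, 2 and 3. That of cct-2 (beta), on chromosome II from 8927255 to 8927658, had a score of 113 and ranked 2665, 3362 and 1420. That of cct-4 (delta), on chromosome II from 8283269 to 8283672, had a score of 88.1 and ranked 2670, 4003 and 10824. Replicate 3 gave cct-2 its highest placing and cct-4 its lowest, and only in replicate 3 did a promoter region among these 7 fall outside the top regions. The median score of a bound gene was 127, so cct-5 lay above it and cct-2 and cct-4 below it, with 57.2% and 73.9% of bound genes scoring higher than cct-2 and cct-4.

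**Figure D1:**
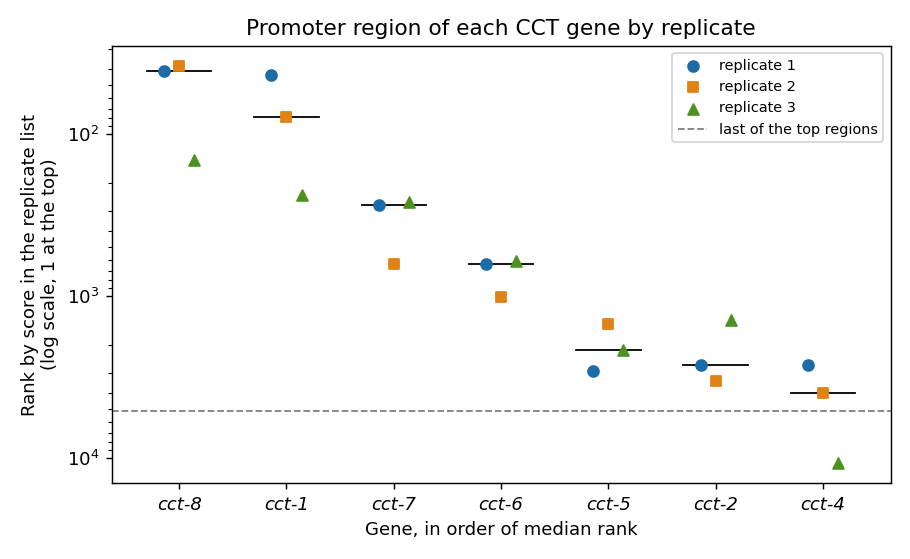
Rank of the promoter region of each CCT gene in the lists of replicates 1, 2 and 3 (log axis with rank 1 at the top); black bars are medians over 3 replicates and the dashed line is rank 5148. The genes spread from a median rank of 41 for cct-8 to 4003 for cct-4, and cct-3 is missing because no promoter region was listed for it.

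By median rank over the replicates the order was cct-8 (41), cct-1 (79), cct-7 (274), cct-6 (636), cct-5 (2166), cct-2 (2665) and cct-4 (4003). The ranges of cct-1 and cct-7 did not overlap (237 against 263 at the nearest), nor did those of cct-6 and cct-5. By these ranges alone the genes fell into a strong pair, a middle pair and 3 weak ones. The order within replicates does not set the groups apart. It held in 3 of 3 replicates for cct-1 above cct-7 and cct-6 above cct-5, but also inside both pairs. Within the strong pair the ranges overlapped, although cct-8 ranked above cct-1 in 3 of 3 replicates, and the same held for cct-7 and cct-6. Between cct-5 and cct-2 the order held in 1 of 3 replicates, so they are not told apart. The ranges of cct-2 and cct-4 overlapped too, with cct-2 above cct-4 in 3 of 3 replicates. With 3 replicates an exact paired permutation test could not pass a threshold of 0.05, and none was run.

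The point sources lay upstream of the annotated cct starts, farthest at cct-5 and cct-8. In the IDR list their positions ran from −196 bp at cct-4 to −446 bp at cct-5, with −230 bp at cct-1, −284 bp at cct-2, −294 bp at cct-6, −312 bp at cct-7 and −431 bp at cct-8. For a given gene the strongest promoter points of the IDR list and the 3 replicates lay within 7 bp of each other at cct-5 and within 86 bp at cct-2, the narrowest and the widest spread of the 7 genes. In 6 of the 7 genes (85.7%) the IDR point lay more than 200 bp upstream, against 45.8% of all bound protein-coding genes, whose median position was −186 bp. The exception was cct-4, whose points in replicates 1 and 2 also lay beyond 200 bp, at −232 and −235 bp. The quartiles over bound genes were −292 and −104 bp, and cct-1, cct-2 and cct-4 lay between them. Of bound genes, 3.43% lay farther upstream than cct-5 and 4.86% farther than cct-8. For cct-7 and cct-6 these shares were 20.4% and 24.3%. A bound gene has its point in the promoter window, so no point more than 500 bp upstream could count. The shares for cct-5 and cct-8, which lie near that edge, are thus low partly by construction. The median and quartiles over bound genes have the same limit. Many worm genes are trans-spliced, so an annotated start can be a splice site downstream of the true start of transcription, and distances are to the annotation.

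**Figure D2:**
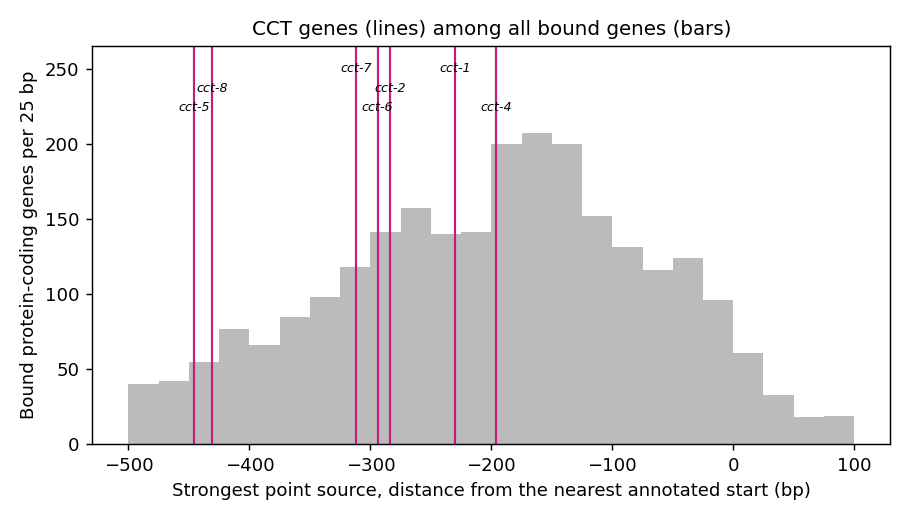
Position of the strongest promoter point source, in bp from the nearest annotated start, for 2533 bound protein-coding genes (grey bars, 25 bp each) and for 7 CCT genes (lines). All 7 lines lie at or upstream of −196 bp, while the median over bound genes is −186 bp.

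Most cct genes stand head to head with a neighbour, and they share their region with it. In 6 of 8 (75%) the next opposite-strand protein-coding start upstream was within 1 kb, against 17.7% of all protein-coding genes, and all 6 of these had a promoter point source, against 27.3% of all genes with such a neighbour. The remaining genes were cct-3 and cct-2, with gaps of 1070 and 1190 bp. In 5 of 7 bound genes the point source of the IDR list lay nearer to the start of another gene than to that of the cct gene. At cct-8 it lay at −190 bp from Y55F3AR.2, which encodes a thioredoxin domain protein, and at cct-1 it lay at −190 bp from mig-5, a dishevelled gene of Wnt signalling. At cct-5 it lay at −295 bp from the kinase domain gene F25F2.1. At cct-7 it lay at −127 bp from the acetyltransferase gene T10B5.4 and at −46 bp from the non-coding RNA gene T10B5.13. At cct-4 it lay at −263 bp from nst-1, a nucleostemin-like GTPase gene, farther than from cct-4 itself. In replicates 1 and 2, however, the strongest promoter point was nearer to nst-1. It lay at −227 and −224 bp from nst-1, against −232 and −235 bp from cct-4. In replicate 3 it was nearer to cct-4, at −165 bp. At cct-6 the IDR point source lay at −37 bp from the outer Ensembl start of the aldehyde dehydrogenase gene alh-9. RefSeq starts alh-9 at 5857209, from which the point lies at −1228 bp. With the RefSeq start, alh-9 lies over 1 kb from cct-6 and is not the nearer gene. The counts of 6 of 8 and 5 of 7 thus include cct-6 only by the Ensembl start. Which of the genes in a pair a region serves was not tested.

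**Figure D3:**
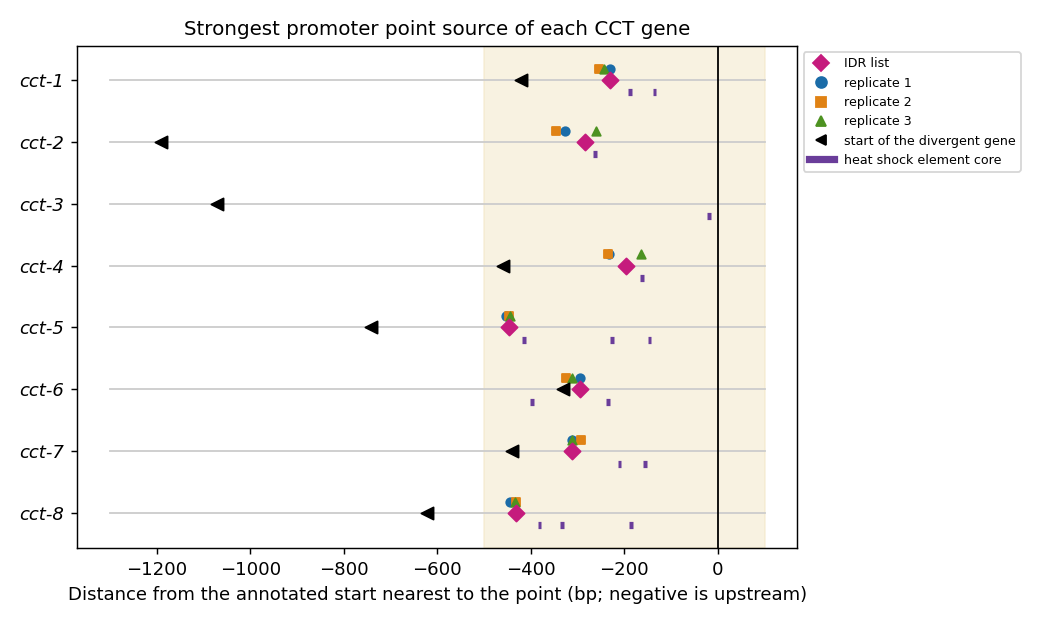
Strongest promoter point source of each CCT gene in the IDR list (diamonds) and in the 3 replicates, by distance in bp from the annotated start; the shaded band is the promoter window, black triangles are starts of the divergent protein-coding gene and purple ticks are heat shock element cores within 500 bp upstream. The points of a gene cluster within 86 bp, 6 of the 8 divergent Ensembl starts lie within 1 kb, and cct-3 has no point in the window.

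In the IDR list, cct-5 was the only subunit gene with point sources inside it. It had 3 in its window of gene body and 2 kb upstream, and it was the only cct gene with 3 or more (1 of 8), against 1.36% of protein-coding genes. That share covers genes of any length, and the window of cct-5 spans 10.9 kb. Per kb it held 0.275 IDR point sources, against 0.113 (cct-8) to 0.247 (cct-4) at the other bound cct genes. Besides the promoter region, both others lay in intron 2, which spans 6134 bp and is the longest intron of the 8 genes. One, on chromosome III from 4504362 to 4504765, lay 3550 bp into the gene with an IDR score of 141 (rank 1679), as high as the promoter region. It ranked 3058, 1698 and 1133 in replicates 1, 2 and 3 and was among the top regions of all 3. The other, from 4505745 to 4506148, lay 2167 bp into the gene with a score of 85.5 (rank 3515). It ranked 2758 and 2678 in replicates 1 and 2, and no region of replicate 3 overlapped it.

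The gamma subunit gene cct-3 (chromosome II, 2233540 to 2243539) had no region in the IDR list. The nearest IDR point source lay at −13460 bp from its start, and at −159 bp from Y59C2A.3. Even the relaxed lists, which reach into background and hold a promoter point source for 40.3% of protein-coding genes in at least 1 replicate, had none in the promoter window of cct-3. Its window held 10, 9 and 8 relaxed point sources in replicates 1, 2 and 3, spread along the gene, and the best of them ranked 11082, 7370 and 8999, outside the top regions. Those best points lay 7871, 7548 and 9558 bp into the gene. The gene is 10000 bp long, the longest of the 8, and starts 1070 bp from the divergent gene F54A3.6.

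**Figure D4:**
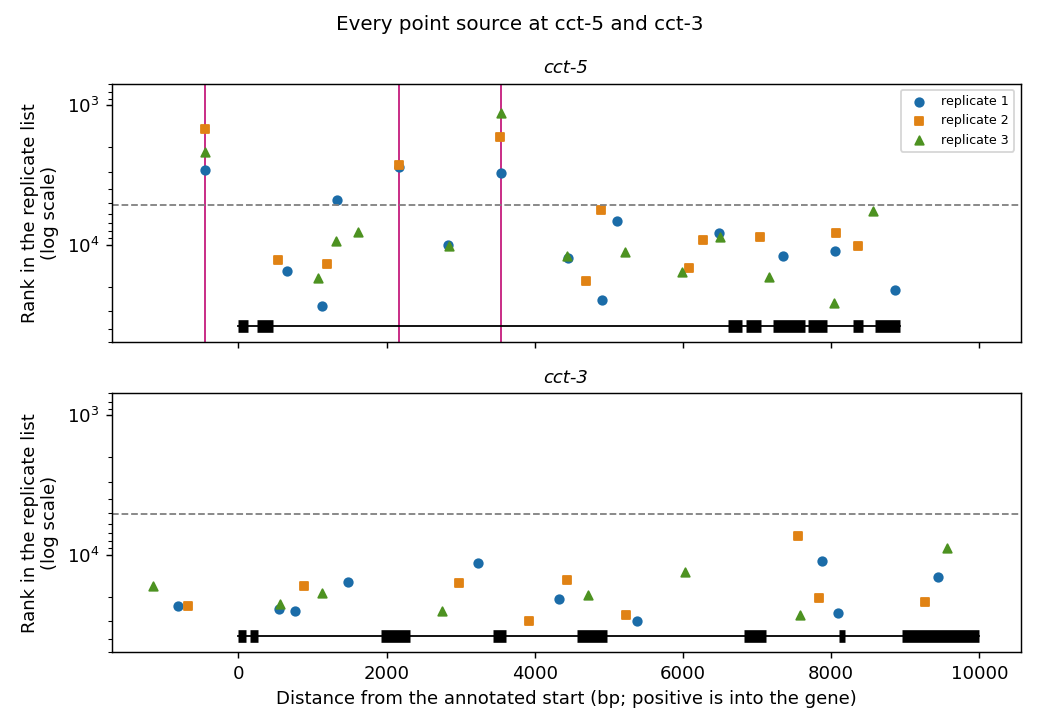
Every point source at cct-5 (upper panel) and cct-3 (lower panel) in the 3 replicate lists, by distance in bp from the annotated start and rank (log axis, high ranks at the top); pink lines mark IDR point sources, the dashed line is rank 5148 and black boxes are exons. At cct-5 the points listed at the 3 marked positions lie above the dashed line, but replicate 3 has none at 2167 bp. An unmarked point of replicate 1, at 1330 bp, also lies above it. At cct-3 every point lies below the dashed line.

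Across the 8 windows, 53.4 kb in all, the relaxed lists held 49, 38 and 45 point sources in replicates 1, 2 and 3. These make 0.917, 0.711 and 0.842 per kb, against 0.299 per kb over the nuclear genome in each list. The density in the same windows of other protein-coding genes was not counted, so the 2 values are not of like sequence. The window of cct-3, which had no IDR region, held 0.833, 0.75 and 0.667 per kb. Of the relaxed point sources in the 8 windows, 10, 9 and 7 were among the top regions, and all of these but 1 overlapped a region of the IDR list. The exception lay in intron 2 of cct-5, 1330 bp into the gene, and ranked 4757 in replicate 1. The other relaxed point sources ranked down to 29958 and lay in introns, in exons and upstream. Counting all relaxed point sources, the window of cct-5 held 14, 12 and 13 in replicates 1, 2 and 3, and that of cct-1 held 1, 1 and 3.

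In the printed windows, 4 of 7 promoters held the core of a heat shock element, the inverted repeat that heat shock factor recognises. The letters searched were GAANNTTC and TTCNNGAA, which read the same on both strands, and 6.87% of the 5209 windows of the IDR list held either. The promoter of cct-1 held GAATATTC, that of cct-2 held TTCGAGAA, and those of cct-4 and cct-5 both held TTCTAGAA. In each of the 4 the match lay between the point source of the IDR list and the start of the cct gene. It began 38, 18, 30 and 27 bp past that point at cct-1, cct-2, cct-4 and cct-5. The replicates did not all keep this order. In replicate 3 the point of cct-2, at −260 bp, lay inside its core (−266 to −259 bp). That of cct-4, at −165 bp, also lay inside its core (−166 to −159 bp). In the 500 bp upstream of the start, a span chosen after these matches were seen, all 8 genes held a core, against 46.9% of bound and 48.3% of all protein-coding genes. In cct-6, cct-7 and cct-8 the nearest core toward the gene was centred 58.5, 101.5 and 49.5 bp from the point source, so that it was not wholly within the printed bases. In cct-3, which had no region, the core GAAAATTC lay within 22 bp of the start. A match is a description of the letters, and binding of heat shock factor was not measured.

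None of the 7 promoter windows held the GA repeat GAGAGA, the E2F letters TTTGGCGC or TTTCCCGC, or the TATA box letters TATAAA, searched on both strands, against 26.3%, 1.63% and 7.22% of IDR windows. Both intronic windows of cct-5 held GAGAGA, read as TCTCTC on the strand of the gene. The promoter windows had GC contents of 48% at cct-1, 46% at cct-2, 35% at cct-4, 40% at cct-5, 47% at cct-6, 50% at cct-7 and 57% at cct-8. The median over IDR windows was 44%, with quartiles of 37% and 51%, so cct-8 lay above that span and cct-4 below it.

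MEP-1 regions were also counted at the genes of the prefoldin subunits, which hand proteins to CCT, and of the proteins that it folds. Of the 6 prefoldin genes, 4 had a promoter point source in the IDR list (66.7%, against 12.7% of protein-coding genes), and all 4 were in the top regions of every replicate. The strongest was pfd-1, with an IDR score of 407 and ranks of 170, 189 and 204 in replicates 1, 2 and 3. It was followed by pfd-6 (score 204), pfd-4 (IDR rank 2836) and pfd-5 (score 94.1). The other two had no promoter point source in the IDR list. At pfd-2 none of the 3 relaxed lists held one either, whereas at pfd-3 a promoter region ranked 1783 in replicate 1 and 3772 in replicate 3, with none listed in replicate 2. Of 21 actin and tubulin genes, which encode the main clients of CCT, 6 had a promoter point source (28.6%, against 12.7% of protein-coding genes). Of these 6, 4 were in the top regions of every replicate, and act-5 and mec-12 were not. The alpha-tubulin gene tba-2 led with a score of 341, followed by the actin gene act-4 (231), the beta-tubulin gene tbb-1 (228) and the actin gene act-2 (213). The actin genes are near-identical in sequence, so reads in or near them may be shared. The median score of the bound genes was 229 for cct, 152 for prefoldin and 221 for actin and tubulin genes, against 127 for all bound genes. The difference between these lists was not tested.

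The protein-coding genes with ranks most like those of cct-8 were lin-53, nra-2 and Y22D7AL.10, by the sum of absolute differences of log2 rank over 3 replicates among 4144 genes with a promoter region in all 3 relaxed lists. The genes lin-53, for a histone-binding protein, and nra-2, for a nicalin, share 1 region, which ranked 49, 57 and 162 in replicates 1, 2 and 3 (sum of differences 1.00). Y22D7AL.10, which RefSeq annotates as a 10 kDa mitochondrial heat shock protein, ranked 56, 56 and 136 (sum 1.10). Their IDR scores were 598, 598 and 597, against 676 for cct-8.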

How the data were processed

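The files were ChIP-seq region lists of 3 biological replicates of tagged MEP-1 in L4 larvae, 1 group, with groups and replicate numbers from the labels. Per the file listings deposited with the samples, the authors made a relaxed list for each replicate and for the pooled replicates against a control, and an optimal IDR list from these, on builds ce11 and ce10. The score in the deposited lists is the caller's signal value. The point source column is an offset from the region's start. For the aligner, the caller and the threshold of the IDR step, nothing is given in the labels or listings. The control and the ce10 lists were not analysed here. No read counts were given, so depth is unknown.

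From these lists, mitochondrial regions (20 in the IDR list) were dropped and the rest ranked by score with pandas 2.3.3 and numpy 2.4.6. Of the 5209 nuclear IDR regions 5196 had the same start, end and point in the pooled list, and 5173 of these differed in score by under 0.1%, so IDR scores are those of pooled reads. Coordinates are ce11 and 1-based. Starts came from Ensembl release 115 (WBcel235, the same assembly), and region ends lay within the reference chromosomes. Point sources were assigned by window as stated beside each result. Functions were tested on simulated regions.

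No test was made: there is 1 group, and the 8 members and both pathway lists were chosen with earlier results of these data known. Counts are set beside the same count over all protein-coding genes. All cct genes were named whatever their values, with every gene sharing their point source or nearest to it, up to 4 bound genes of each pathway list by score, and the 3 genes nearest in rank to the cct gene of best median rank. Alternatives covered the window, region overlap, the upper part of the list, the pooled list, the start used and each replicate left out.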

Additional observations from a re-analysis of the deposited data

How the results depend on the processing

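Of 59 alternative values, 51 stayed within 1.5 times the reported count or within 1 SD of the ranks, and 8 moved. The tally includes values that could hardly move. Taking the best-ranked point in the gene body or 2 kb upstream gave the same median rank at every bound cct gene but cct-5. At cct-4 the SD of the ranks, 4374, exceeded their median of 4003. The narrow window (200 bp upstream to 100 bp downstream) left 1 cct gene and 3 actin and tubulin genes in the IDR list. It kept 3 of the 4 prefoldin genes, and 6.96% of all protein-coding genes were called by it. In the top regions of all 3 replicates it left 0 cct genes, against 3.98% of all protein-coding genes. The gene body alone held a point source in 1 cct gene (12.5% of the 8), against 6.4% of all protein-coding genes. Counting the nearest start alone left 2 cct and 2 prefoldin genes, against 9.28% of all protein-coding genes. By promoter, the upper part of the IDR list (scores at or above the median) left 6 cct and 2 prefoldin genes. The share of all protein-coding genes was then 7.76%. The wide window (1000 bp upstream to 200 bp downstream) gave 7 cct genes and raised the actin and tubulin genes to 10. It also raised the share of all protein-coding genes to 16.3%. Smaller windows and shorter lists hold fewer points by construction. Without replicates 1, 2 and 3 in turn, 67.5%, 68.1% and 72.0% of the IDR regions remained. The count of cct genes was then 6, 6 and 7, since cct-4 was outside the top regions of replicate 3. By promoter, 9.3%, 9.52% and 9.95% of all protein-coding genes were called in these settings. Region overlap, the outermost start and the pooled list all gave 7 cct genes, against 14.3%, 11.6% and 12.7% of all protein-coding genes by promoter. The pooled list is no separate check, since 5196 of the 5209 IDR regions are in it with the same start, end and point. No paired analysis was possible because pairing samples by replicate number needs a second group of samples; the order of the cct genes was instead counted within each replicate, with no test. Read depth is unknown, and an absent region, as at cct-3, says only that none was listed.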
